A study of Schizosaccharomyces pombe with 16 samples.

Results

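The genes described here lie in the outermost 80 kb of each end of chromosome I of the fission yeast Schizosaccharomyces pombe. They were chosen by position alone: every annotated row of chromosome I other than the SPNCRNA non-coding rows that ended at or below base 80000, or started within 80000 bases of the largest annotated end, 5579133. This gave 56 of the 7022 rows of the expression table, 32 at the left end and 24 at the right end, and RefSeq lists 51 of them as protein-coding. Polyadenylated RNA was measured in 16 libraries, 2 biological replicates of each of 8 strains grown in rich YES medium. The strains differed in the carboxy-terminal domain (CTD) of Rpb1, the largest subunit of RNA polymerase II, a tail of repeated heptads. The single mutants Y1F, S2A, T4A and S7A each replaced 1 residue of the heptad: Y1F put phenylalanine for the tyrosine, T4A put alanine for the threonine, and S2A and S7A put alanine for a serine, while the double mutants Y1F-S7A, S2A-S7A and T4A-S7A joined S7A to each of the others. The control strain, WT, is itself labelled as carrying an rpb1 CTD allele, rpb1CTD-WT 1-18, and all 8 strains share the markers ade6, ura4-D18 and leu1–32. S2A is labelled h+ and the other 7 strains h-, so mating type cannot be told apart from the S2A mutation in S2A against WT, nor from the added S7A in S2A-S7A against S2A. Each genotype is represented by 1 named strain.

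Subtelomeres are the regions next to the telomere repeats. In fission yeast their outer part is packed into heterochromatin, which carries methylated histone H3 lysine 9, written by the Clr4 complex and bound by the HP1 proteins Swi6 and Chp2, and is nucleated both by the telomere-binding protein Taz1 and by RNA interference at repeats inside the tlh helicase genes. Further inward lies condensed chromatin marked by shugoshin, Sgo2. Genes in these regions are known for low expression in rich medium, for roles in nutrient uptake, cell-surface adhesion and stress, and for near-identical copies at the ends of other chromosome arms.

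The sequence of the outermost genes is repeated, which limits what short reads can show of them. In the reference genome (RefSeq ASM294v3), 31 of the 56 genes had under 50% of their 50-base windows unique in the genome, counting both strands, and 9 had no unique window. Most of the copies lay on chromosome II. 3 of the repeated windows are printed because they come from genes with 0 or 1 read in all, and each is identical, over its whole length, to the copies named, so no base is capitalised. The window of tlh1, a RecQ-type DNA helicase gene, lies at I:2807-2856 on the reverse strand and again at II:4529691-4529740. That of ftm1, which encodes a protein with a transmembrane helix domain, lies at I:30392-30441 on the forward strand and at 2 places on chromosome II (II:8690-8739 and II:4504185-4504234). That of its relative ftm4 lies at I:5566585-5566634 on the reverse strand, once more at the left end of chromosome I (I:30288-30337) and at 2 places on chromosome II (II:8586-8635 and II:4504289-4504338).
tlh1: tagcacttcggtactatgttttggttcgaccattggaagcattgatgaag
ftm1: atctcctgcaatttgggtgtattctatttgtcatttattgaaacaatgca
ftm4: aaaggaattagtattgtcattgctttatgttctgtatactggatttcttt

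Libraries held 18677921 to 31254978 reads over all rows, and the 56 genes together held 10129 to 43700 of them, or 0.0473% in T4A replicate 2 to 0.172% in S2A replicate 1. 16 of the 56 genes had 0 reads in all 16 libraries, 10 at the left end and 6 at the right, and all 16 had under 50% of their windows unique. None of the 25 genes with at least 50% of their windows unique had 0 reads throughout. A count of 0 allows up to 3 reads in a library, for counting error alone, and how reads with several matches were treated is not given in the sources used here, so the level of these 16 genes cannot be told apart from reads that were not assigned. Across the series 230 rows, 3.28%, had 0 reads in every library. A further 12 genes had reads but too few to be tested, at most 50 over the 16 libraries. The low-count filter thus passed 28 of the 56 genes, 15 at the left end and 13 at the right, or 50% of them, against 93.5% of the 5431 nuclear rows outside the SPNCRNA class. Of those 28, 7 had under 50% of their windows unique (SPAC212.08c, SPAC212.04c, SPAC977.18, ftm2, SPAC977.06, fex1 and SPAC977.12), from 8.06% in SPAC977.06 to 39.3% in SPAC212.04c, and their values are uncertain for that reason.

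Levels per length were low next to the rest of the genome and uneven along both ends. RPKM is the count scaled to the size of the library and to each kilobase of annotated width. Over all 56 genes the median of the mean RPKM was 0.139, against 24.9 over all rows. The 16 genes with 0 reads, whose level cannot be told apart from unassigned reads, enter that median. Over the 28 tested genes the median was 3.83, against 29.4 over all tested rows. In the outermost 20 kb, 2 of 7 genes at the left end and 0 of 7 at the right were tested. From 20 to 40 kb the ends differed in make-up: 4 of 12 genes were tested at the left end, with a median RPKM of 0.0113 and a median of 11.7% unique windows, and 6 of 7 at the right end, with a median RPKM of 5.43 and 100% unique windows. From 40 to 60 kb 5 of 8 genes at the left end and 3 of 5 at the right were tested, and from 60 to 80 kb 4 of 5 at each end. The median RPKM of the innermost of these stretches was 6.64 at the left end and 0.150 at the right.

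**Figure D1:**
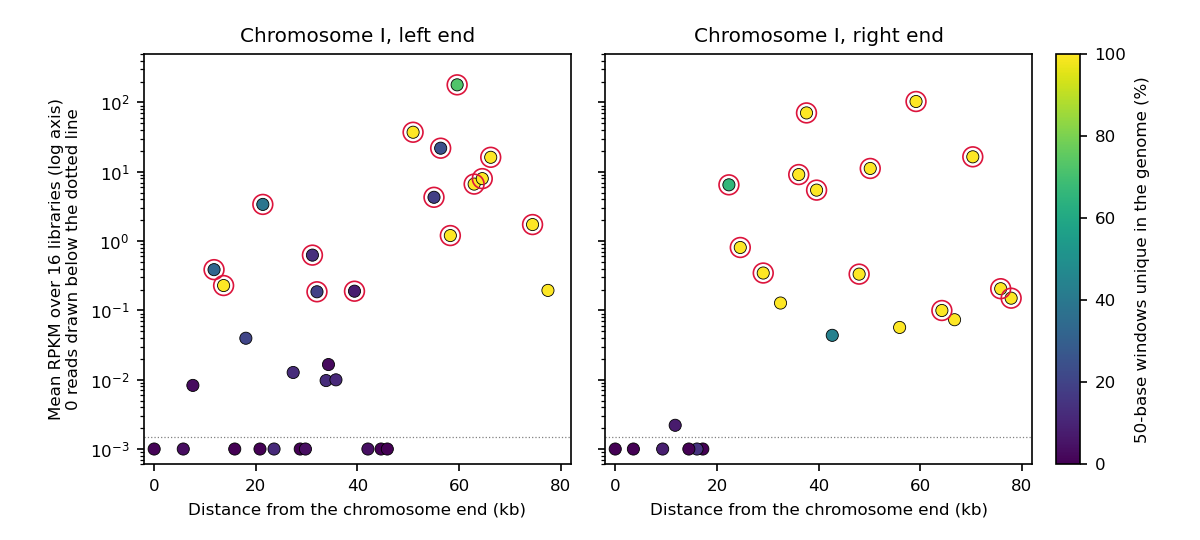
Mean RPKM over the 16 libraries (log axis) of each of the 56 genes against its distance from the chromosome end in kb, for the left and right end, coloured by the share of its 50-base windows that are unique in the genome. Red rings mark the 28 tested genes and points below the dotted line had 0 reads, and the 16 points there all have under 50% of their windows unique.

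The genes of the highest level per length encode enzymes and transporters. At the left end they were SPAC977.14c (I:59614-60907), an aldo-keto reductase family gene with a mean of 179.5 RPKM, nhe1 (SPAC977.10, also called sod2, I:50946-53858), the sodium ion/proton antiporter of the plasma membrane, with 37.2, and the L-asparaginase gene SPAC977.12 (I:56373-57736) with 21.9. Only 24.3% of the windows of SPAC977.12 and 72.4% of those of SPAC977.14c are unique. Reads of their copies may enter these levels, or reads of their own may be missing from them, which was not tested. The genes with no unique window, 9 in all, had 0 reads in every library. At the right end the highest gene was yhb1 (SPAC869.02c, I:5517865-5519950), a nitric oxide dioxygenase, with 103.2 RPKM. Next were gdt1 (SPAC186.05c, I:5540032-5541502), of the GDT1 family of membrane transporters, with 70.6, and the sulfate transporter gene sul2 (SPAC869.05c, I:5505583-5508782) with 16.4. The lowest tested genes were ftm2 (SPAC977.02) at 0.186 and SPAC977.06 at 0.189 RPKM on the left, and the urea transporter gene SPAC869.03c at 0.0996 and the melibiase gene mel1 (SPAC869.07c) at 0.150 on the right. The outermost genes, tlh1 (I:1-5662) on the left and the malic enzyme gene SPAC750.08c (I:5578447-5579133) on the right, were among those with 0 reads. At the inner borders, SPAPJ695.01c (I:77480-78066, a mean of 0.194 RPKM) was the last gene inside on the left and the hexose transporter gene ght3 (I:82746-84786, 0.616) the first outside, and on the right mel1 (I:5499768-5501236) was the last inside and pcm2 (I:5497918-5499280, 0.288 RPKM) the first outside.

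**Figure D2:**
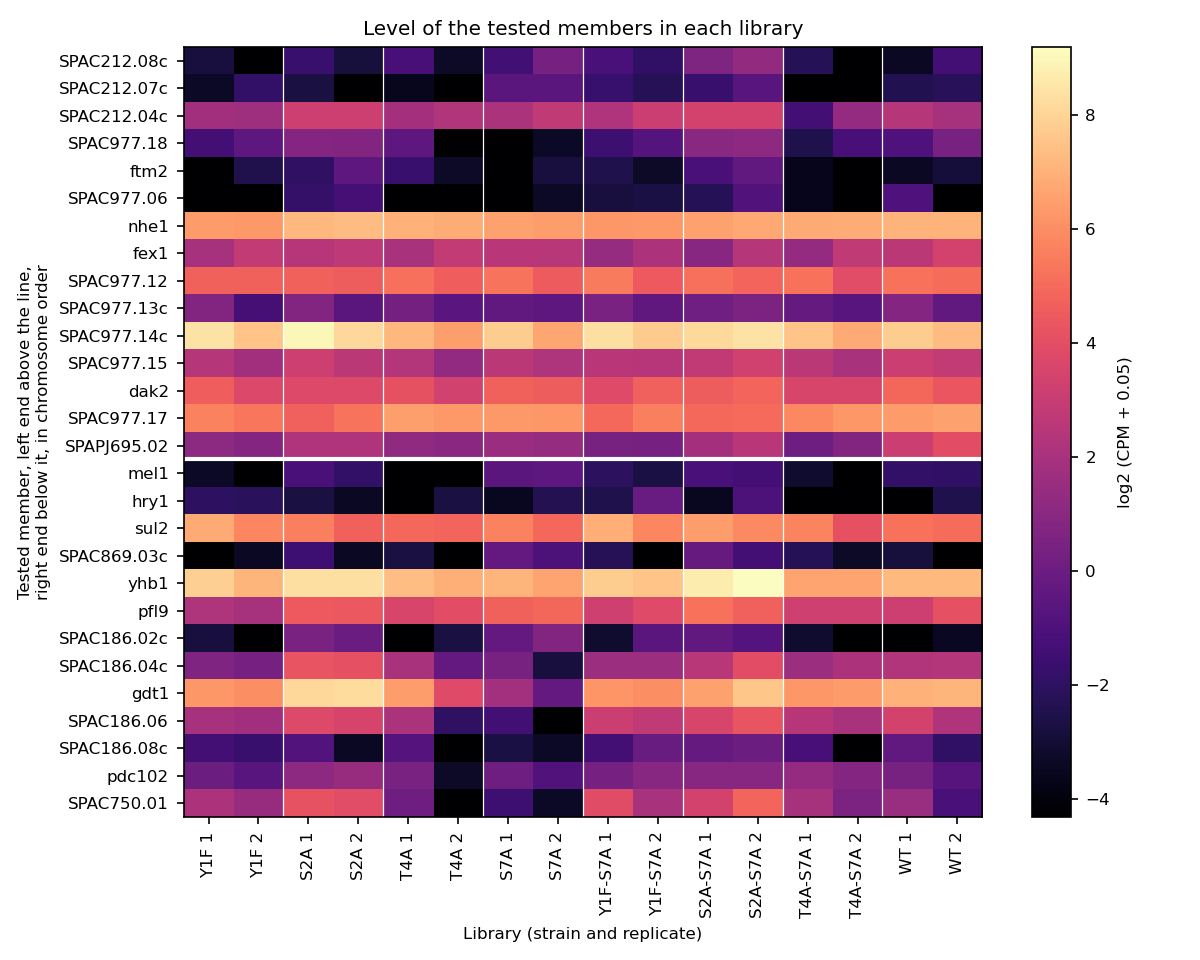
Level of the 28 tested genes in each of the 16 libraries as log2 (CPM + 0.05), with the 15 left-end genes above the white line and the 13 right-end genes below it, in chromosome order. Columns run from Y1F to WT with replicates side by side, and brighter cells are higher; gdt1 is bright in every strain but S7A and the second T4A library.

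Each mutant was compared with WT to ask which of these genes depend on the replaced CTD residue. Levels between strains are given as CPM, the count scaled to the effective size of the library, and changes as the log2 fold change with its SE (n = 2 libraries in each strain). The SE is the size of the change over the square root of the F statistic of edgeR's quasi-likelihood test. That statistic uses a variance fitted over all 16 libraries, so the SE does not measure the spread of the 2 replicates. A gene was called at an adjusted p under 0.05 in edgeR's quasi-likelihood test, with Benjamini-Hochberg adjustment over all 6420 tested features, and rose or fell refer to called genes. The 7 comparisons share the 2 WT libraries, so a low or high WT value enters all of them. In bulk cultures such as these, fewer cells with a transcript and less of it per cell cannot be told apart. In a second fit the replicate number was a block, and its counts, with their directions, follow where they differ by more than 1.5 times. Over all tested features the median change was between -0.0083 and 0.0089 in each of the 7 comparisons.

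Few of the 28 tested genes passed the test without the block in the single mutants. In Y1F 3 fell and 0 rose, 10.7% of those tested, with 2.96% of all tested features called and 1.67% called lower, and the block fit called 1 higher and 4 lower (12.6% of all features called). In S2A 2 rose and 2 fell, near the background of 11.9% called (7.17% higher and 4.72% lower), and the block fit called 5 higher and 2 lower (29.4%). In T4A 1 fell, where 0.0935% of all features were called and 0.0779% were lower. In S7A 4 fell and 0 rose, with 1.71% of all features called and 0.717% called lower. The block fit instead gave 3 higher and 5 lower (8.1% of all features called), and DESeq2 2 higher and 6 lower (4.69%). The median change over the 28 genes was -0.62 in Y1F and -0.58 in T4A, 0.46 in S2A, and -0.28 in S7A.

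Among the double mutants, Y1F-S7A had 3 genes that fell and 0 that rose, all at the left end, with 7.21% of all features called, 3.74% higher and 3.47% lower, and the block fit called 1 higher and 4 lower (24.9%). In S2A-S7A 4 rose and 3 fell, or 7 of 28, with 16.5% of all features called (8.49% higher and 8.04% lower), and the block fit called 8 higher and 4 lower (37.9%). In T4A-S7A 1 fell, with 2.79% of all features called and 1.68% lower, and the block fit called 0 higher and 2 lower (10.9%). The median change over the 28 genes was -0.03, 1.03 and -0.71 in Y1F-S7A, S2A-S7A and T4A-S7A. By end, the calls were 2 left and 1 right in Y1F, 2 and 2 in S2A, 1 and 0 in T4A, 2 and 2 in S7A, 3 and 0 in Y1F-S7A, 4 and 3 in S2A-S7A, and 1 and 0 in T4A-S7A.

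**Figure D3:**
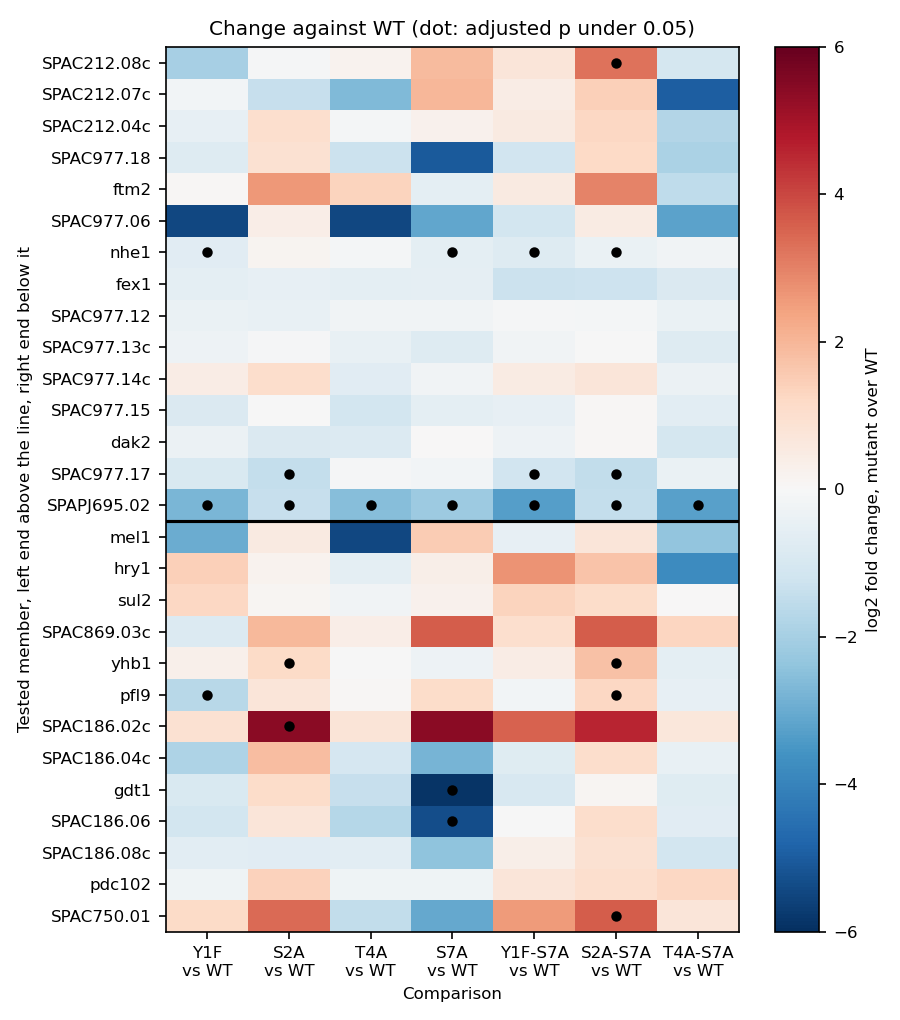
Log2 fold change of each of the 28 tested genes in the 7 mutants against WT, red for higher and blue for lower, with a dot where the adjusted p was under 0.05 and the left-end genes above the line. SPAPJ695.02, the last left-end gene, has a dot in all 7 columns, and gdt1 and SPAC186.06 have one in the S7A column.

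At the left end, SPAPJ695.02 (I:74452-76721, an uncharacterized protein-coding gene) fell in every mutant. It had 2.08 and 1.69 CPM in Y1F, 4.74 and 4.78 in S2A, 2.28 and 2.00 in T4A, 2.94 and 2.65 in S7A, 1.27 and 1.24 in Y1F-S7A, 3.65 and 5.78 in S2A-S7A and 1.00 and 1.64 in T4A-S7A, against 8.96 and 16.2 CPM in WT. All 14 mutant libraries lay below both WT libraries, and the WT libraries differed from each other by more than any mutant pair. The change was largest in Y1F-S7A (-3.32 ± 0.38, adjusted p = 0.000589) and T4A-S7A (-3.27 ± 0.38, adjusted p = 0.00109), followed by Y1F (-2.73 ± 0.37, adjusted p = 0.00246), T4A (-2.55 ± 0.36, adjusted p = 0.0196) and S7A (-2.17 ± 0.35, adjusted p = 0.0105). It was smallest in S2A-S7A (-1.42 ± 0.34, adjusted p = 0.0158) and S2A (-1.40 ± 0.34, adjusted p = 0.0195). The calls in Y1F, Y1F-S7A and T4A-S7A were kept with any library of their strains left out. Without WT replicate 2 the other 4 were lost, with -0.91 for S2A (adjusted p = 0.202), -2.06 for T4A (adjusted p = 0.21), -1.67 for S7A (adjusted p = 0.0842) and -0.94 for S2A-S7A (adjusted p = 0.156). They were also lost without either library of S2A (adjusted p = 0.124 and 0.101), of T4A (adjusted p = 0.19 and 0.191) or of S7A (adjusted p = 0.106 and 0.127), and without S2A-S7A replicate 1 (adjusted p = 0.101). The deposited row is 2270 bases wide and the RefSeq gene 1459, so part of its reads may come from outside that gene model.

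The antiporter gene nhe1, which exports sodium and lithium from the cell, fell in 4 mutants by less. It had 84.1 and 78.7 CPM in Y1F, 91.4 and 86 in S7A, 76.6 and 79.6 in Y1F-S7A and 94.8 and 106 in S2A-S7A, against 133 and 132 CPM in WT. In the 3 strains without a call it had 142 and 157 CPM in S2A, 126 and 117 in T4A, and 112 and 116 in T4A-S7A. All mutants but S2A lay below both WT libraries, T4A and T4A-S7A by the least, and S2A lay above them. The changes were -0.70 ± 0.10 in Y1F (adjusted p = 0.0045), -0.58 ± 0.10 in S7A (adjusted p = 0.0171), -0.76 ± 0.10 in Y1F-S7A (adjusted p = 0.00188) and -0.39 ± 0.10 in S2A-S7A (adjusted p = 0.0226). Only the Y1F-S7A call was kept with each library of its strains left out. That in Y1F was lost without Y1F replicate 2 (adjusted p = 0.0501), that in S7A without any 1 of the 4 libraries (adjusted p from 0.0935 to 0.182), and that in S2A-S7A without S2A-S7A replicate 1 (adjusted p = 0.124) or either WT library (adjusted p = 0.0942 and 0.0902). Set against S2A, its own parent, S2A-S7A also fell at nhe1 (-0.57 ± 0.10, adjusted p = 0.0438), a call lost without any 1 of the S2A and S2A-S7A libraries (adjusted p from 0.1 to 0.261). Here S2A-S7A is h- and S2A h+, so the added S7A and mating type cannot be told apart. The non-coding row SPNCRNA.19 overlaps nhe1 on the same strand, and SPNCRNA.602 (I:50851-51545) overlaps it as well, so their reads may be shared. The deposited row of nhe1 is 2913 bases wide and the RefSeq gene 1870, so part of its reads may come from outside that gene model.

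SPAC977.17 (I:66219-69821), of the MIP superfamily of water and glycerol channels, fell in the mutants with S2A and in Y1F-S7A. It had 25.8 and 38.5 CPM in S2A, 31 and 47.5 in Y1F-S7A and 31.3 and 32.1 in S2A-S7A, against 83.8 and 91.9 CPM in WT. The other strains gave 50.6 and 41.2 CPM in Y1F, 87.8 and 78.8 in T4A, 79.7 and 78.1 in S7A, and 58.2 and 75.9 in T4A-S7A. The libraries of T4A overlapped those of WT, and those of Y1F, S7A and T4A-S7A lay below WT without a call. The changes were -1.45 ± 0.23 in S2A (adjusted p = 0.00146), -1.16 ± 0.23 in Y1F-S7A (adjusted p = 0.0114) and -1.47 ± 0.23 in S2A-S7A (adjusted p = 0.00147). The Y1F value, -0.94 ± 0.23, missed the threshold (adjusted p = 0.0506) and passed it with the block (adjusted p = 0.00859). The calls in S2A and S2A-S7A were kept with each library left out, and that in Y1F-S7A was lost without Y1F-S7A replicate 1 (-0.89, adjusted p = 0.0896) or WT replicate 2 (adjusted p = 0.075). Its opposite-strand neighbour dak2 (SPAC977.16c), a dihydroxyacetone kinase gene, overlaps it, and strand use in the counting is not given in the sources used here, so reads in the overlap cannot be told apart. The kinase gene dak2 itself passed in none of the 7 comparisons and ranged from 10.2 to 28.1 CPM over the 14 mutant libraries, against 29.6 and 19.5 CPM in WT.

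SPAC212.08c (I:11784-12994), a GPI-anchored protein gene close to the left telomere, rose in S2A-S7A. It had 1.46 and 2.42 CPM there, against 0.0457 and 0.344 CPM in WT, which are 38 and 49 reads against 1 and 8. The other mutants ranged from 0 in Y1F replicate 2 and T4A-S7A replicate 2 to 1.23 CPM in S7A replicate 2, so S2A-S7A was above all of them. The change of 3.25 ± 1.02 (adjusted p = 0.0487) was lost without any 1 of the 4 libraries (2.47 to 5.24, adjusted p from 0.0723 to 0.228), and 32.8% of the windows of this gene are unique.

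At the right end, the mutants with S2A were higher at yhb1, whose product removes nitric oxide. It had 326 and 323 CPM in S2A and 409.5 and 586 in S2A-S7A, against 149.9 and 147 CPM in WT. The other strains lay between 97.8 and 229.9 CPM, with 101 and 97.8 in T4A-S7A and 139 and 99.1 in S7A at the low end. The 4 libraries with S2A were the highest of the 16. The changes were 1.13 ± 0.26 in S2A (adjusted p = 0.0135) and 1.74 ± 0.26 in S2A-S7A (adjusted p = 0.00108). The S2A-S7A call was kept without each library in turn, and the S2A call was lost without any 1 of its 4 (1.12 to 1.14, adjusted p from 0.0594 to 0.0878).

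The cell-surface glycoprotein gene pfl9 (SPAC186.01, I:5527462-5528959), of the DIPSY family of flocculins, moved in both directions. It fell in Y1F, with 4.54 and 3.83 CPM against 9.28 and 17.0 CPM in WT, and rose in S2A-S7A, with 36.7 and 25.9 CPM. It had 21.9 and 21.5 CPM in S2A, 12 and 15.7 in T4A, 26.8 and 29.8 in S7A, 9.54 and 14.1 in Y1F-S7A, and 9.38 and 9.55 in T4A-S7A. S2A, S7A and S2A-S7A lay above both WT libraries, and T4A, Y1F-S7A and T4A-S7A overlapped them. The changes were -1.65 ± 0.31 in Y1F (adjusted p = 0.0166) and 1.25 ± 0.29 in S2A-S7A (adjusted p = 0.0136). The values in S7A (1.11 ± 0.29, adjusted p = 0.0959) and S2A (0.72 ± 0.29, adjusted p = 0.143) passed with the block (adjusted p = 0.0164 and 0.0425). The Y1F call did not hold once WT replicate 2 was left out (-1.15, adjusted p = 0.138) or either Y1F library (adjusted p = 0.0886 and 0.123), and that in S2A-S7A without WT replicate 1 (0.88, adjusted p = 0.0974) or S2A-S7A replicate 1 (0.98, adjusted p = 0.0841).

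**Figure D4:**
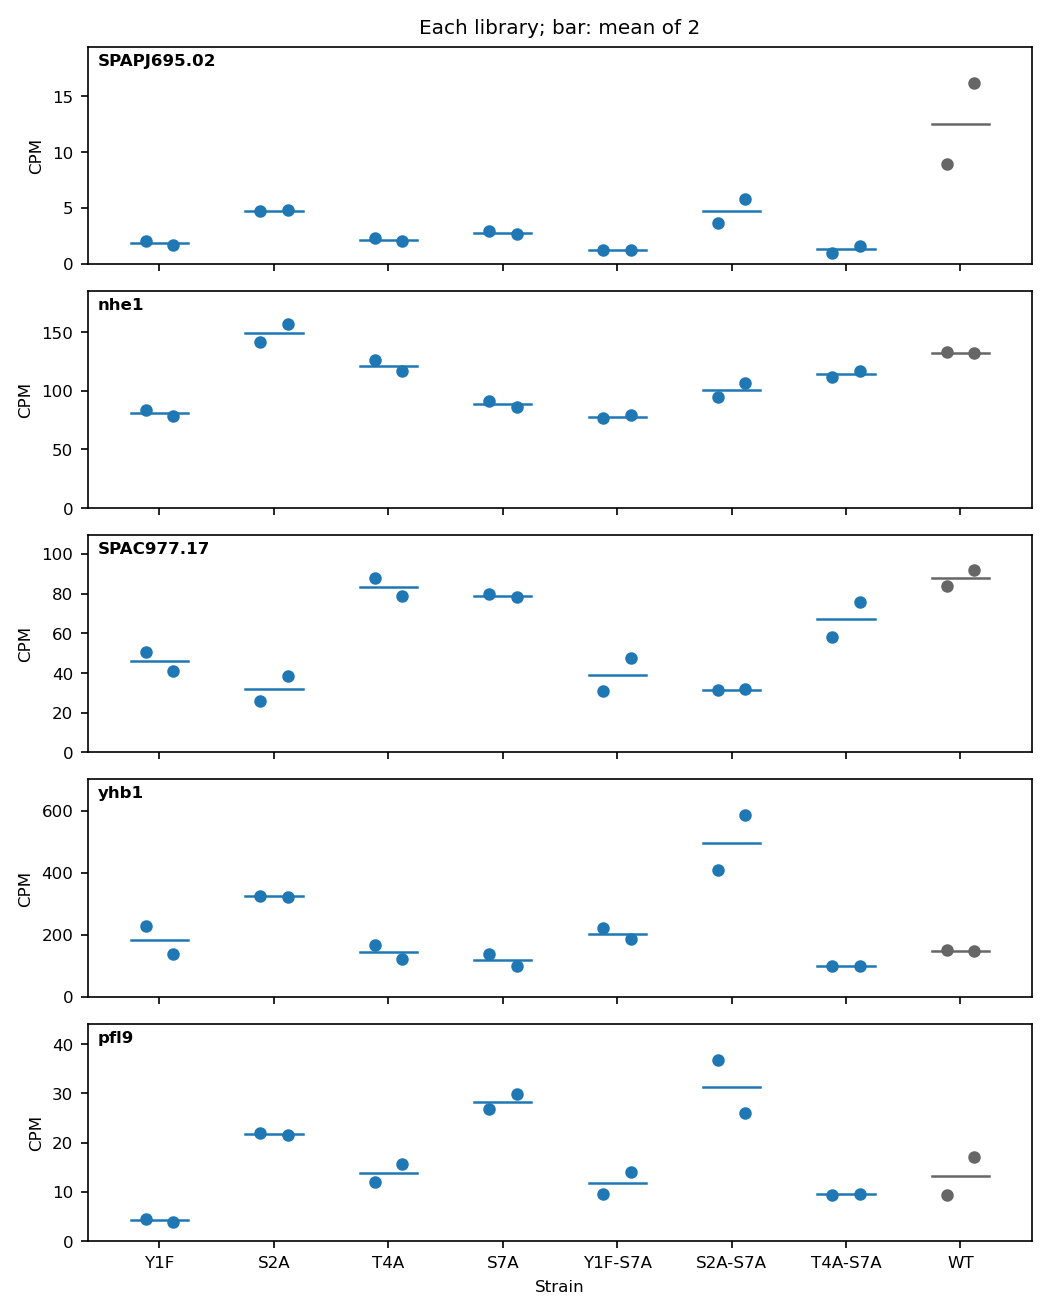
CPM of SPAPJ695.02, nhe1, SPAC977.17, yhb1 and pfl9 in each library (points) with the mean of the 2 libraries (bar), in the 7 mutants in blue and in WT in grey, on linear axes from 0. The 14 mutant points of SPAPJ695.02 sit at or below 5.78 CPM, under both WT points, and the 4 S2A and S2A-S7A points of yhb1 sit at or above 323 CPM.

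2 other right-end genes also rose, the first of them of low count. The hydroxyacid dehydrogenase gene SPAC186.02c (I:5529851-5531144) had 1.33 and 0.948 CPM in S2A, against 0 and 0.043 CPM in WT. These are 60 reads in the 2 S2A libraries against 1 read in the 2 WT libraries, a ratio of 52.6 per library size with an exact 95% interval of 9.09 to 2113, which covers counting error only. The call (adjusted p = 0.0236) ended when S2A replicate 1 (adjusted p = 0.101) or either WT library (adjusted p = 0.144 and 0.0996) was left out. S7A, at 0.771 and 1.57 CPM, and S2A-S7A, at 0.730 and 0.544, lay above both WT libraries too and passed with the block (adjusted p = 0.0812 and 0.022 in S7A, 0.0519 and 0.0196 in S2A-S7A, without and with it). SPAC750.01 (I:5555716-5556768), an aldo/keto reductase family gene, had 10.6 and 28.8 CPM in S2A-S7A, against 2.83 and 0.387 CPM in WT. Its change of 3.61 ± 1.06 (adjusted p = 0.0367) was lost without WT replicate 2 (2.78, adjusted p = 0.196) or S2A-S7A replicate 2 (2.72, adjusted p = 0.17). S2A, at 18.7 and 15.5 CPM, lay between the S2A-S7A libraries, with 3.41 ± 1.05 (adjusted p = 0.0568, and 0.0185 with the block). SPAC750.01 shares 34.2% of its windows with another place, at the left end of the chromosome, where SPAC977.14c shares 27.6% of its own.

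Both S7A libraries were below WT at 3 adjoining right-end genes, of which 2 were called: the uncharacterized gene SPAC186.04c (I:5538480-5539516), gdt1, and SPAC186.06 (I:5542290-5543031), annotated as an isomerase. GDT1 proteins are membrane transporters linked to calcium and manganese balance in budding yeast. gdt1 had 3.56 and 0.784 CPM in S7A, against 129 and 137 CPM in WT, or 97 and 16 reads against 2831 and 3190. It had 75.7 and 63.9 CPM in Y1F, 276 and 292 in S2A, 86.8 and 14.1 in T4A, 73.5 and 64.8 in Y1F-S7A, 95 and 189.8 in S2A-S7A, and 76.9 and 82.3 in T4A-S7A. Both S7A libraries were below the other 14, the second T4A library came next, and S2A was above WT. The change in S7A was -5.88 ± 0.81 (adjusted p = 0.00663), lost without S7A replicate 2 (-5.22, adjusted p = 0.0671).

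SPAC186.06 had 0.330 and 0 CPM in S7A, against 10.6 and 4.68 CPM in WT, or 9 and 0 reads against 232 and 109. It had 3.72 and 3.34 CPM in Y1F, 13.6 and 11.4 in S2A, 4.22 and 0.205 in T4A, 8.39 and 6.74 in Y1F-S7A, 12 and 19.4 in S2A-S7A, and 5.51 and 4.01 in T4A-S7A. T4A replicate 2 lay between the S7A libraries, and every other library was above both. Its change in S7A, -5.34 ± 1.12 (adjusted p = 0.038), was lost without any 1 of the 4 libraries (adjusted p from 0.0654 to 0.257), at -5.81 to -4.51 in 3 of these fits. Without S7A replicate 1 the S7A library left had 0 reads, so the fitted -10.51 is no estimate of size. SPAC186.04c had 1.28 and 0.0980 CPM in S7A, against 4.94 and 5.12 CPM in WT, and its change of -2.78 did not pass (adjusted p = 0.161, and 0.0132 by DESeq2). It had 1.55 and 1.2 CPM in Y1F, 19 and 17.3 in S2A, 4.12 and 0.769 in T4A, 3.05 and 3.02 in Y1F-S7A, 5.57 and 15.7 in S2A-S7A, and 3.07 and 4.38 in T4A-S7A. Here the first S7A library lay beside Y1F, T4A replicate 2 lay between the S7A libraries, and S2A was the highest strain.

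The T4A replicates disagreed at these genes. T4A replicate 2 had less than replicate 1 at SPAC186.04c, gdt1 and SPAC186.06, and likewise at SPAC750.01 (1.02 and 0 CPM) and SPAC977.18 (0.647 and 0 CPM). The genes between SPAC186.06 and SPAC750.01 were lower in it too: SPAC186.07c (0.341 and 0.0513 CPM), SPAC186.08c (0.545 and 0 CPM) and pdc102 (1.40 and 0.0513 CPM). All 7 right-end genes from 20 to 40 kb were thus lower in T4A replicate 2. The gdt1 value of T4A against WT was -1.39 (adjusted p = 0.651), with -0.62 without T4A replicate 2 and -3.24 without T4A replicate 1. T4A replicate 2 also had the lowest share of reads in the 56 genes, 0.0473%, with S7A replicate 2 next at 0.0489%. In every strain but S2A-S7A the share was lower in replicate 2 than in replicate 1. S7A replicate 2 was below S7A replicate 1 at SPAC186.04c, gdt1, SPAC186.06, SPAC186.08c, pdc102 and SPAC750.01, and above it at SPAC186.07c and SPAC977.18. The part of these libraries in these values was not tested. SPAC977.18 (I:31140-32345), an uncharacterized left-end gene with 13.7% of its windows unique, had 0 and 0.0490 CPM in S7A, against 0.457 and 1.29 CPM in WT, and passed with the block (adjusted p = 0.128 without it and 0.0394 with it). Its low S7A values rest on 0 and 1 read.

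**Figure D5:**
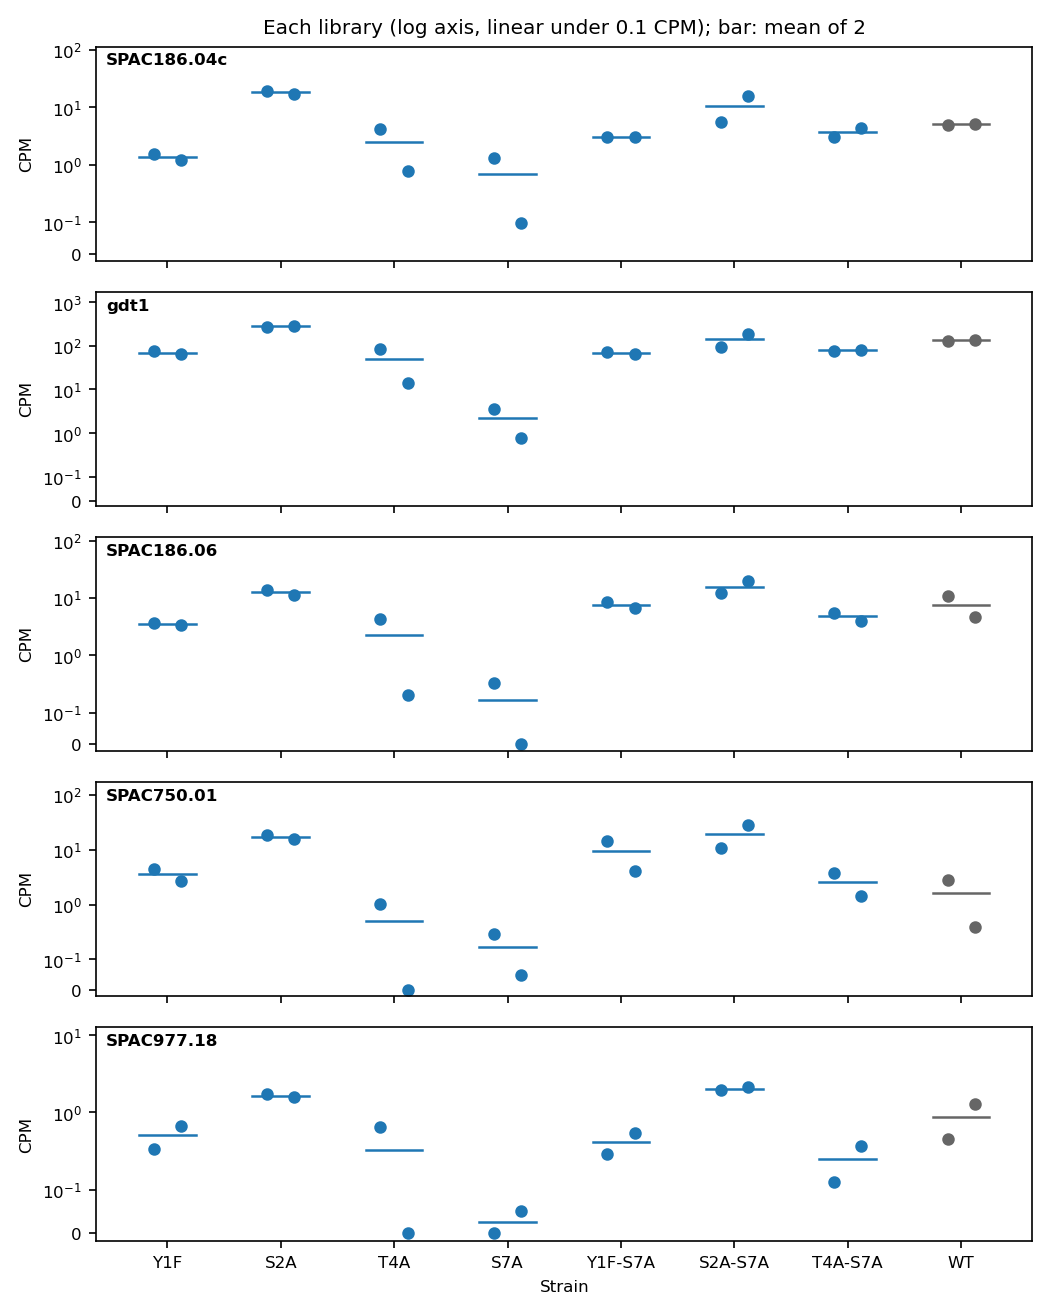
CPM of SPAC186.04c, gdt1, SPAC186.06, SPAC750.01 and SPAC977.18 in each library (points) with the mean of the 2 libraries (bar), in the 7 mutants in blue and in WT in grey, on a log axis that is linear under 0.1 CPM. The S7A points of gdt1 sit at 3.56 and 0.784 CPM, below all 14 others, and the T4A points of all 5 genes are spread widely.

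gdt1 and SPAC186.06 are divergent neighbours, and SPAC186.04c follows gdt1 on the same strand, so their start regions are printed as the data bear on all 3. Each sequence runs from 250 bases before to 50 bases after the RefSeq gene start (ASM294v3), 5′ to 3′ on the strand of the gene: SPAC186.04c at I:5539470-5539769 on the reverse strand, gdt1 at I:5541432-5541731 on the reverse strand and SPAC186.06 at I:5541782-5542081 on the forward strand. Capitals mark matches, on either strand, to 4 searched motifs: the TATA box TATAAA (reverse TTTATA), the Atf1-type core TGACGT (reverse ACGTCA), the GATA core GATAA (reverse TTATC) and the C-rich stress element CCCCTC (reverse GAGGGG). The deposited row of SPAC186.06 starts at base 5542290, inside the RefSeq gene.
SPAC186.04c: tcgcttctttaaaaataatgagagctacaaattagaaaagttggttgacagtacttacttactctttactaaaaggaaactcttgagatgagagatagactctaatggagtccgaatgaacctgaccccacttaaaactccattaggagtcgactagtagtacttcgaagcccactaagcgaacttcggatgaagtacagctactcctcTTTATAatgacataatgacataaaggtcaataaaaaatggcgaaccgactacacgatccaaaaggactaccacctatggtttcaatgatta
gdt1: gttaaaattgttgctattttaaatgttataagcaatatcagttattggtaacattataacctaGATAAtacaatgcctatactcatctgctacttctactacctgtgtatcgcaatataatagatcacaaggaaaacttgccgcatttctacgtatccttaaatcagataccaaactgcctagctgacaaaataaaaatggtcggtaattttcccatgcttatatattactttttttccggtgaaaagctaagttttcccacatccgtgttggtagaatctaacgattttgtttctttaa
SPAC186.06: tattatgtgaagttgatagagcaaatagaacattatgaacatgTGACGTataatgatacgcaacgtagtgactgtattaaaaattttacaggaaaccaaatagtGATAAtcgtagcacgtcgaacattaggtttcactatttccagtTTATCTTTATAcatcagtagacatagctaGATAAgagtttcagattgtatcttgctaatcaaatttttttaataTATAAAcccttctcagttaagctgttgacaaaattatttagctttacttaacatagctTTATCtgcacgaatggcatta

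SPAC186.04c held 1 reverse TATAAA at position -41 from its gene start and gdt1 held 1 GATAA at position -187. SPAC186.06 held 1 TGACGT, 2 TATAAA and 4 GATAA matches, none overlapping another, with a reverse GATAA and a reverse TATAAA side by side. No motif was shared by all 3, and CCCCTC was in none of them. Of the 5112 windows of the same length at RefSeq gene starts, 48.1% held TATAAA, 5.91% TGACGT, 59.5% GATAA and 2.11% CCCCTC, so TATAAA and GATAA are common in such windows.

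Across the 16 libraries the log2 CPM of the 3 genes gave a Pearson r of 0.897 between SPAC186.04c and gdt1, 0.895 between SPAC186.04c and SPAC186.06 and 0.952 between gdt1 and SPAC186.06. These are descriptions of libraries that share strains and replicate numbers, and the S7A libraries are low at all 3 genes. Outside the chromosome I end windows, the rows most like their mean profile were nrg1 (SPBPB2B2.01, II:4457661-4459842), an amino-acid permease gene near the right end of chromosome II, with r = 0.900, cid14, which encodes a poly(A) polymerase of the TRAMP complex, with 0.856, and the aromatic aminotransferase gene SPAC56E4.03 with 0.835. Within the ends they were SPAC750.01 with 0.823 and SPAC977.18 with 0.811.

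Each double mutant was then set against its own single mutants. Against the parent without S7A, few genes passed: 0 of 28 in Y1F-S7A against Y1F (0.0156% of all features called), 1 in S2A-S7A against S2A (nhe1, above, with 0.483% called and 0.14% lower) and 0 in T4A-S7A against T4A (0.187% called, 0.0467% lower). The block fit called 1 higher (1.36% of all features called), 1 higher and 1 lower (10.6%), and 0 (2.51%) in these. At an unadjusted p under 0.05 in edgeR the comparison of Y1F-S7A with Y1F had 1 of the 28 genes and that of T4A-S7A with T4A had 1. Over all 6420 features these counts were 370 and 527. DESeq2 called 1 and 0 of the 28, where 1.01% and 1.74% of all features were called. With the block, pfl9 was called in Y1F-S7A against Y1F (1.49 ± 0.31, adjusted p = 0.13 without it and 0.0208 with it), and SPAC212.08c in S2A-S7A against S2A (3.31 ± 1.00, adjusted p = 0.175 and 0.037).

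Against S7A, more genes passed, and gdt1 was called in all 3. In Y1F-S7A 3 were higher and 2 lower than in S7A, with 5.06% of all features called (2.4% higher and 2.66% lower), and the block fit called 5 higher and 4 lower (19.7%). In S2A-S7A 6 were higher and 1 lower, with 14.1% of all features called (7.62% higher and 6.5% lower), and the block fit called 10 higher and 1 lower (33.4%). In T4A-S7A 1 was higher and 1 lower, with 1.29% of all features called (0.312% higher and 0.981% lower), and the block fit and DESeq2 each called 3 higher and 5 lower (9.33% and 4.7% of all features called). These 3 comparisons share the S7A libraries, so the low S7A values of the right-end genes enter each.

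gdt1 was higher than in S7A by 4.93 ± 0.79 in Y1F-S7A (adjusted p = 0.00424), 5.97 ± 0.81 in S2A-S7A (adjusted p = 0.000711) and 5.13 ± 0.79 in T4A-S7A (adjusted p = 0.011). Without S7A replicate 2 the first and the last were lost (4.28, adjusted p = 0.0533, and 4.48, adjusted p = 0.103), and without T4A-S7A replicate 2 the last (5.08, adjusted p = 0.0625). SPAC186.06 was higher by 5.33 ± 1.12 in Y1F-S7A (adjusted p = 0.0179) and 6.38 ± 1.13 in S2A-S7A (adjusted p = 0.00331), and by 4.67 ± 1.12 in T4A-S7A without a call (adjusted p = 0.0718, and 0.0251 with the block). The Y1F-S7A call at SPAC186.06 was lost without any 1 of its 4 libraries (adjusted p from 0.0509 to 0.15), at 4.50 to 5.48 in 3 of these fits, while the fitted 10.50 without S7A replicate 1 is set against 0 reads and is no estimate of size. SPAC186.04c was higher in S2A-S7A by 3.86 ± 0.86 (adjusted p = 0.0107), lost without S7A replicate 2 (3.04, adjusted p = 0.0704) or S2A-S7A replicate 2 (2.92, adjusted p = 0.0777). In S2A-S7A the 3 adjoining genes were thus all called higher than in S7A, the one run of 3 or more neighbours called the same way in any comparison of a pair of strains.

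SPAC750.01 was also higher than in S7A, where it had 0.294 and 0.0490 CPM, in Y1F-S7A, at 14.7 and 4.04 CPM, and in S2A-S7A, at 10.6 and 28.8 CPM. The changes were 5.63 ± 1.31 (adjusted p = 0.0301) and 6.69 ± 1.33 (adjusted p = 0.00607). Without S7A replicate 2 both were lost (4.98, adjusted p = 0.213, and 6.04, adjusted p = 0.0697), and the Y1F-S7A call was lost too without S7A replicate 1 or Y1F-S7A replicate 1 (7.46 and 4.41, adjusted p = 0.148 and 0.154). SPAC977.18 had 93 reads in the S2A-S7A libraries and 1 in those of S7A, a ratio of 95.8 per library size (exact 95% interval 16.8 to 3824, counting error only), and was called (adjusted p = 0.00874) except without either S7A library (adjusted p = 0.0893 and 0.0524). yhb1 was higher in S2A-S7A than in S7A by 2.06 ± 0.26 (adjusted p = 0.000567), with each library left out as well. The lower genes were SPAC977.17, by -1.01 ± 0.23 in Y1F-S7A (adjusted p = 0.0251) and -1.32 ± 0.23 in S2A-S7A (adjusted p = 0.00306), and pfl9, by -1.27 ± 0.29 in Y1F-S7A (adjusted p = 0.0287) and -1.58 ± 0.30 in T4A-S7A (adjusted p = 0.0282). Of these, the S2A-S7A call at SPAC977.17 was kept without each library. The Y1F-S7A call there was lost without S7A replicate 1, S7A replicate 2 or Y1F-S7A replicate 1 (adjusted p = 0.121, 0.127 and 0.192, the last at -0.73), and both pfl9 calls were lost without any 1 of their libraries (adjusted p from 0.054 to 0.212 in Y1F-S7A and from 0.135 to 0.186 in T4A-S7A).

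Further genes were called against S7A with the block and missed the threshold in the fit that left it out. In Y1F-S7A these were yhb1 (0.78 ± 0.26, adjusted p = 0.0422 with the block and 0.112 otherwise) and sul2 (1.07 ± 0.53, adjusted p = 0.0333 and 0.322), both higher, and SPAPJ695.02 (-1.15 ± 0.37, adjusted p = 0.036 and 0.102) and SPAC869.03c (-2.62 ± 1.11, adjusted p = 0.042 and 0.229), both lower. In S2A-S7A they were SPAC977.14c (0.93 ± 0.45, adjusted p = 0.00932 and 0.211), sul2 (0.83 ± 0.52, adjusted p = 0.0488 and 0.347), ftm2 (3.54 ± 1.24, adjusted p = 0.0368 and 0.0823) and SPAC186.08c (3.35 ± 1.40, adjusted p = 0.0458 and 0.146), all 4 higher. ftm2 and SPAC186.08c had 2 and 4 reads in the 2 S7A libraries together, so their size is loosely set. In T4A-S7A, beside SPAC186.06, nhe1 was higher (0.36 ± 0.10, adjusted p = 0.0196 and 0.133), and SPAC212.04c (-2.03 ± 0.63, adjusted p = 0.0292 and 0.162), mel1 (adjusted p = 0.02 and 0.0613), SPAC186.02c (adjusted p = 0.0236 and 0.0954) and the pseudogene SPAC212.07c (adjusted p = 0.0167 and 0.0505) were lower. In the T4A-S7A libraries mel1 and SPAC186.02c had 2 and 0 reads each and SPAC212.07c had 0 in both, so no fold is given for these 3.

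Whether S7A acted differently in the mutant backgrounds than in WT was tested as an interaction, the S7A effect in the other mutant minus that in WT. In edgeR 0 of the 28 genes passed in the Y1F, S2A or T4A background, where 0%, 0.483% and 0.0156% of all features were called. At an unadjusted p under 0.05 there were 8, 6 and 9 of the 28, beside 354, 576 and 330 of the 6420 features. DESeq2 called 3 of the 28 in each background, beside 62, 170 and 37 of all features. The block fit called 0, 3 and 0 of the 28, beside 74, 234 and 24 of all features. For gdt1 the interaction was 5.86 in Y1F (adjusted p = 0.0806), 4.88 in S2A (adjusted p = 0.065) and 6.53 in T4A (adjusted p = 0.0935). The 3 called with the block in the S2A background were SPAPJ695.02 (2.15 ± 0.49, adjusted p = 0.0974 without it and 0.0202 with it), SPAC186.02c (lower, adjusted p = 0.156 and 0.0393) and SPAC186.06 (higher, adjusted p = 0.117 and 0.0393). Libraries at 0 reads enter the last 2, so their fitted size is no bound and is not given. S2A alone is h+, so in this background the interaction and mating type cannot be told apart.

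A joint test of the 7 mutants and WT called 14 of the 28 genes, 6 left and 8 right, or 50%, with 22.3% of all features called, and 21 with the block (57.9%). Among them were 12 genes described above, SPAC977.18 included, and the melibiase gene mel1 (adjusted p = 0.0117) and the pseudogene SPAC212.07c (adjusted p = 0.03). mel1 had 0.624 and 0.686 CPM in S7A, the highest strain, against 0.229 and 0.215 CPM in WT, and 0 in both T4A libraries. SPAC212.07c had 0.624 and 0.637 CPM in S7A, against 0.137 and 0.172 CPM in WT, and 0 in both T4A-S7A libraries. Both rest on at most 17 reads in a library.

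The remaining 14 tested genes passed neither the joint test nor any comparison with WT without the block. The highest of them, SPAC977.14c, had 522 and 273 CPM in S2A and 89.5 to 340.5 CPM in the other mutants, against 222 and 157 CPM in WT, and was called in S2A and S2A-S7A only with the block (1.07 ± 0.45, adjusted p = 0.165 and 0.0137, and 0.73 ± 0.45, adjusted p = 0.311 and 0.0306). The sulfate transporter gene sul2 had 112 and 54.3 CPM in Y1F, 118 and 55.5 in Y1F-S7A and 87.2 and 58.7 in S2A-S7A, against 36.3 and 32.8 CPM in WT. In each of these strains replicate 1 was higher than replicate 2, and both were above WT. Their changes of 1.26 ± 0.53, 1.33 ± 0.53 and 1.08 ± 0.53 were called with the block alone (adjusted p = 0.289, 0.164 and 0.196 without it and 0.0311, 0.0142 and 0.02 with it). The fluoride channel gene fex1 was lower in Y1F-S7A (2.58 and 4.37 CPM) and S2A-S7A (1.88 and 5.19 CPM) than in WT (6.03 and 10.6 CPM), again with calls under the block only (adjusted p = 0.228 and 0.0166, and 0.177 and 0.00912). The urea transporter gene SPAC869.03c had 0.771 and 0.441 CPM in S7A and 0.846 and 0.346 CPM in S2A-S7A, against 0.0914 and 0 CPM in WT. Both were called higher with the block (adjusted p = 0.251 without it and 0.0466 with it in S7A, 0.0813 and 0.0154 in S2A-S7A), from 30 and 29 reads in the 2 libraries of each, against 2 reads in those of WT. In the uncharacterized gene SPAC212.04c, T4A-S7A had 0.344 and 2.48 CPM, against 5.21 and 3.83 CPM in WT (adjusted p = 0.204, and 0.0438 with the block). The asparaginase gene SPAC977.12 ranged from 15.3 to 44.7 CPM over the mutant libraries, against 36.9 and 32.6 CPM in WT, with no call against WT in either fit. SPAC977.13c, SPAC977.15, SPAC977.06, ftm2, hry1, SPAC186.08c and pdc102 stayed at or under 9.69 CPM in every library.

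Next to other regions the counts of calls were as follows, without a test of the difference between regions. The shares of all features called were those given above, 2.96% in Y1F, 11.9% in S2A, 0.0935% in T4A, 1.71% in S7A, and 7.21%, 16.5% and 2.79% in the double mutants Y1F-S7A, S2A-S7A and T4A-S7A. Of the 56 rows in the outer 80 kb of chromosome II 26 were tested, and 1 was higher and 3 lower in Y1F, 13 and 0 in S2A, 0 and 1 in S7A and, among the double mutants, 2 and 0 (Y1F-S7A), 15 and 0 (S2A-S7A) and 1 and 2 (T4A-S7A). With the block these were 2 higher and 4 lower in Y1F, 15 and 0 in S2A, 1 and 5 in S7A, then 9 and 1 (Y1F-S7A), 19 and 0 (S2A-S7A) and 2 and 4 (T4A-S7A). Over all features the block fit called 12.6%, 29.4% and 8.1% for Y1F, S2A and S7A. For Y1F-S7A, S2A-S7A and T4A-S7A its shares were 24.9%, 37.9% and 10.9%. These block shares apply to the next region as well. The next 80 kb inward on chromosome I, from 80 to 160 kb, held 63 rows, 61 of them tested. There 2 were higher and 15 lower in Y1F, 2 and 10 in S2A, 0 and 2 in S7A and, among the double mutants, 3 and 18 (Y1F-S7A), 4 and 13 (S2A-S7A) and 1 and 6 (T4A-S7A). With the block these were 2 higher and 27 lower in Y1F, 4 and 23 in S2A, 0 and 13 in S7A, then 4 and 24 (Y1F-S7A), 5 and 19 (S2A-S7A) and 2 and 19 (T4A-S7A). In T4A edgeR called 0 in either region, with 8 and 9 rows at an unadjusted p under 0.05, beside 492 of the 6420 features. The block fit called 1 in each (1.64% of all features) and DESeq2 2 and 1 (1.04%). Of the 19 SPNCRNA rows within the outer 80 kb of chromosome I, 5 were tested. Without the block the edgeR calls against WT were SPNCRNA.284 (1.67) and SPNCRNA.61 (3.44), both higher in S2A-S7A. The block fit also called 1 lower in Y1F, 1 higher in S2A and 1 lower in Y1F-S7A. DESeq2 also called 1 higher in S2A, where 17.2% of all features were called.

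The genes of the silencing machinery itself were read from 7 lists of 41 genes, covering shelterin, the Clr4 complex, HP1 and SHREC, RNA interference, the Sgo2 and Set2 marks, anti-silencing factors and nuclear envelope anchors. All 41 were tested. In Y1F, S2A, T4A, S7A and T4A-S7A against WT 0 were called in edgeR. At an unadjusted p under 0.05 there were 4, 9, 0, 4 and 2, beside 918, 1588, 492, 776 and 894 of the 6420 features. The block fit called 3, 12, 0, 3 and 2, where 12.6%, 29.4%, 1.64%, 8.1% and 10.9% of all features were called. DESeq2 called 1, 6, 0, 0 and 1, where 6.82%, 17.2%, 1.04%, 4.69% and 5.95% of all features were called. In Y1F-S7A 2 fell, clr4, the histone H3 lysine 9 methyltransferase gene (-0.61), and pcu4, of its complex (-0.52), where 7.21% of all features were called and 3.47% were lower, and the block fit called 10 (24.9%). In S2A-S7A 5 fell and 1 rose, near the share of all features, where 16.5% were called, 8.04% lower and 8.49% higher, and the block fit called 16 (37.9%). The lower ones were rap1, which bridges Taz1 to the rest of shelterin (-0.89), rik1 (-0.50) and pcu4 (-0.56), both of the Clr4 complex, stc1, which links the RNA interference and Clr4 complexes (-0.90), and chp1 (-0.55), and the higher one was the inner nuclear membrane gene bqt3 (0.38).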

How the data were processed

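Polyadenylated RNA was sequenced as stranded, paired-end libraries with 8 samples pooled per lane, per the labels' protocols. The authors deposited 1 table of read counts for each annotated row in each library, and every test started from those counts. Per the submitters' processing notes the aligner was Bowtie 0.12.7, and the genome build, counting tool and treatment of reads with several matches are not given in the sources used here. Beside counts, the deposited table holds log2 values, per the file headers log2 RPKM and log2 fold changes, adjusted p-values and row widths. The log2 values and p-values of the authors were not used for any result, and levels were recomputed from the counts. Coordinates are those of the deposited table. The largest end on chromosome I equals the length of the reference (RefSeq ASM294v3), and of 6844 rows matched by locus tag 99.284% had an identical start or end, so sequence was read from that reference.

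Counts were analysed with edgeR 4.0.16 in R 4.3.3, with filterByExpr by strain (6420 of 7022 rows), TMM factors and a robust quasi-likelihood model with 1 coefficient per strain over all 16 libraries. Tests were two-sided with Benjamini-Hochberg adjustment over the 6420 rows. The method was tested on simulated data. Same-numbered libraries deviated together from their strain means, with correlations of 0.22 to 0.61 over the 28 pairs of strains. The replicate numbers of the labels were therefore taken to pair the samples. The main calls, their SE and the fits with a library left out do not use this pairing. Values with the replicate number as a block are given where they change a call of a gene in a comparison of strains, or a count. Windows of 50 bases were counted as unique where the reference held them once on either strand. Other alternatives were RLE factors, no low-count filter, DESeq2 1.42.0, each library left out in turn, and only genes with at least 50% of their windows unique. The last of these, like the interactions, was chosen after seeing the data. Leaving out 1 library left its strain with a single one, assumed to vary as the other strains do.

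The genes, lists and tests were chosen with earlier results of these data known. Named with values were the genes called against WT, up to 3 called genes in each direction for each double mutant against a parent, the 3 highest and 2 lowest tested genes of each end by RPKM, the border genes, tlh1, gdt1 and SPAC186.06, and the 3 rows outside most like a block of called neighbours. Other genes given values in the text were chosen after those were seen. A gene of the lists is not reported here and is left out of their counts.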

Additional observations from a re-analysis of the deposited data

How the results depend on the processing

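The counts of called genes stayed within 1.5 times under RLE factors and without the low-count filter in all 17 tests, and among genes with at least 50% of their windows unique as well. Of the single-gene values, SPAC212.08c alone lost its call without the filter, and RLE changed no call. The replicate block pairs libraries of one number, and it moved the counts to 5 in Y1F, 7 in S2A, 8 in S7A, 12 in S2A-S7A, 5 in Y1F-S7A and 2 in T4A-S7A against WT, to 1 in Y1F-S7A against Y1F and 2 in S2A-S7A against S2A, to 9, 11 and 8 in Y1F-S7A, S2A-S7A and T4A-S7A against S7A, and to 3 for the interaction in S2A. It ended no call. DESeq2 moved the counts to 8 in S7A against WT, 1 in Y1F-S7A against Y1F, 8 in T4A-S7A against S7A and 3 in each interaction.

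With each library left out in turn, the counts ranged from 1 to 3 in Y1F, 1 to 2 in S2A, 0 to 1 in T4A, 0 to 2 in S7A, 3 to 5 in S2A-S7A, 2 to 3 in Y1F-S7A and 1 to 2 in T4A-S7A against WT. They were 0 in all 4 fits for each double mutant against its parent without S7A, 0 to 3, 4 to 7 and 0 to 1 for Y1F-S7A, S2A-S7A and T4A-S7A against S7A, 0 for the interactions in Y1F and S2A, 0 to 2 for that in T4A, and 11 to 14 for the joint test. The value of SPAC750.01 in T4A against WT, -1.50 without a call, was 0.54 without WT replicate 1, the one change of sign, and -8.24 without T4A replicate 1, where the T4A library left had 0 reads, so that value is no bound. The cause of these shifts was not tested. Leaving out genes by protein identity was not run, because protein sequences were not used here. Depth limits the genes of under about 100 reads, such as mel1 and ftm2, and repeated sequence limits much of the outer 60 kb of the left end, where the genes from 40 to 60 kb had a median of 21.3% unique windows, and the outer 20 kb of the right.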
